A study of Mus musculus with 10 samples.

Results

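The genes described here are 10 members of the S100 family of calcium-binding proteins: S100a1, S100a4, S100a6, S100a8, S100a9, S100a10, S100a11, S100a13, S100a16 and S100b. They were chosen by gene name with their signals and log ratios on these same arrays known, so all values below are a description. The genes were measured in epididymal white adipose tissue (eWAT), the abdominal fat pad of the male mouse, by 13 probes, which are all the non-control probes with 1 of these gene names on an array of 55681 probes and 34797 gene names. All 10 arrays came from 1 group of adult male mice. The sample protocols give their strain as C57BL/6JOlaHsd and the sample characteristics as C57BL/6J, and no altered gene is named. The mice were 9 weeks old at the start, ate a purified low fat diet for 3 weeks and then a high fat diet (HFD) for 12 weeks, all at 29°C, which is thermoneutral for a mouse. They then received desferrioxamine (DFO), a drug that binds iron, once a day for 5 days at 100 mg/kg. They were killed on day 6 after 2 h without food.

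On each array, RNA of 1 mouse, in the dye Cy5, was hybridised against a pool in the dye Cy3. This pool held RNA of all mice of the wider study, these 10 and the control mice included, so it was a common reference and no control group. No array of an uninjected mouse was analysed here, and no effect of DFO was measured. Dyes were not swapped, so a bias of a probe for 1 dye stays in its mean log2 ratio and means were not tested against 0. The comparisons are between mice of the same treatment. Mice are named by their replicate number.

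S100 proteins are small proteins with a pair of EF-hands, folds whose loop can hold a calcium ion. Most form dimers that bind target proteins such as annexins or myosin when calcium rises inside the cell, and several are also released and act on receptors of other cells. S100A8 and S100A9 together form calprotectin, an abundant protein of neutrophils and monocytes that withholds metal ions from microbes. S100B is best known from glia and is also made by adipocytes.

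A pair of the probes is shown here because they lie on the calcium loop of an EF-hand. Each probe was 60 bases long. The main probe of S100a1 lies at chr3:90315191-90315250 on the minus strand of mm9, the build of the array files, and the probe of S100a8 at chr3:90473778-90473837 on the plus strand. The capitals mark 36 bases, or 12 codons, that match the pattern of an EF-hand calcium loop in an open reading frame, so this stretch is coding sequence.
S100a1 probe: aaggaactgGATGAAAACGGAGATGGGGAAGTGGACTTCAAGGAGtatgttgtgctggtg
S100a8 probe: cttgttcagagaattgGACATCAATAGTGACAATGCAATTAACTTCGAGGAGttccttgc
Of the 13 probes, these 2 held the pattern, which was chosen after the values had been seen. The array annotation of the S100a11 probe also names 2 predicted transcripts, so its signal may not come from S100a11 alone.

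The genes with the widest spread between mice, S100a9, S100a8 and S100a4, had the letters TATAAA in their RefSeq promoter window, 300 bases around the annotated transcription start in GRCm38.p6. The stretches are shown because these genes, which follow, differed most between mice, and the capitals mark the motif. They lie at chr3:90603724-90603759 on the plus strand for S100a4, at chr3:90669026-90669061 on the plus strand for S100a8 and at chr3:90695701-90695736 on the minus strand for S100a9.
S100a4 promoter: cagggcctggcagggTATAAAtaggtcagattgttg
S100a8 promoter: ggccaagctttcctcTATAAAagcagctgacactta
S100a9 promoter: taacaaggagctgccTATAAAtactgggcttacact
The motif began 31 bases before the annotated start of S100a4 and 30 bases before that of S100a8, and at the annotated start itself for S100a9. Searched on both strands, TATAAA was found in 3 of the 9 S100 genes that had a promoter entry and in 15.7% of 27025 genes. The core of the hypoxia response element, searched as ACGTG or GCGTG on both strands, was found in 3 of these 9 genes, S100a6, S100a11 and S100a13, and in 46.7% of all genes. Both motifs were chosen after the values had been seen, and a match is a description of the letters only.

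All 130 S100 spots, 13 on each of 10 arrays, were well above background in both dyes, and 0 carried an outlier flag. Over the arrays, the median Cy5 signal of a spot lay between 53 and 79 scanner units against a median background of 32 to 37, and 0 spots were saturated. Mice 4, 5, 6 and 7 stood apart from the other 6 on the first principal component of all 20186 expressed genes, which held 75.5% of the variance. A gene counted as expressed where its brightest probe was well above background in Cy5 on at least 5 arrays. Mouse 2 stood apart on the second component, which held 9.42%, with a loading of 0.93 against -0.22 to 0.01 in the other mice. Mice 4 to 7 are not a group of the study and were picked out after the component had been seen, so they are located below by their lowest and highest value, with no mean and no test. The arrays lay on 5 slides of 2, and the slides of mice 3 and 4 and of mice 7 and 8 each held 1 of these 4 mice beside 1 of the others.

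The log2 ratios of the S100 genes differed widely between mice. Their SD over 10 mice ran from 0.20 for S100a13 to 1.20 for S100a9, with a median of 0.40, against a median of 0.18 over all 20186 expressed genes. All 10 S100 genes lay above that median, as 50% of expressed genes do by definition, and 8 of 10 did with the log ratio of the scanner software. S100a9 was at percentile 99.3 of all expressed genes, S100a8 at 94.4 and S100a4 at 94.0, while S100a10 at 58.7 and S100a13 at 55.5 were near the middle. Without mice 4 to 7, the median SD was 0.25 for the S100 genes and 0.14 for all expressed genes. For scale, 278 probes that are spotted 10 times on each array had a median SD between their spots of 0.086.

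**Figure D1:**
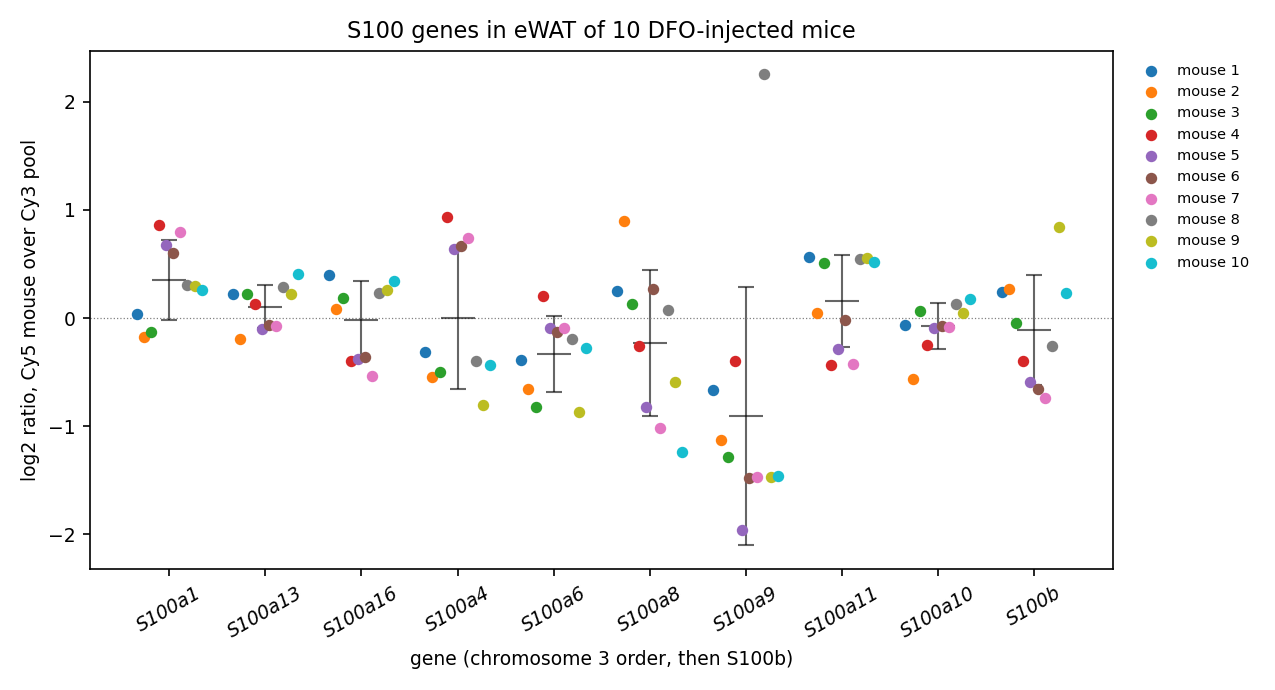
Log2 ratio of each mouse's RNA (Cy5) over the common pool (Cy3) for the 10 S100 genes, 1 point per mouse, on the probe with the brightest signal. Long bars are the mean and whiskers 1 SD over 10 mice. Mouse 8 stands at 2.25 for S100a9 with all other mice below 0, and mice 4 to 7 lie together at the top for S100a4 and, under the loess normalization plotted here but not with median centring, at the bottom for S100a16.

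S100a9, the partner of S100a8 in calprotectin, was far higher in 1 mouse than in the rest. Its log2 ratio was -0.67, -1.13, -1.28, -0.40, -1.96, -1.48, -1.47, 2.25, -1.47 and -1.46 in mice 1 to 10. Mouse 8 lay 2.65 above the next mouse and 3.71 above the median of the other 9, which is 13.1 times on the linear scale. The gap to the next mouse was 0.630 of the whole range, above 0.466, the 95% critical value of Dixon's test for 10 samples, which chance exceeds in about 1 of 20 groups. Among the S100 genes 1 of 10 had such a mouse, and among all expressed genes 5.39% did.

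The mean of S100a9, -0.91 ± 1.20 (SD, n = 10), rested on mouse 8 and became -1.26 ± 0.47 (SD, n = 9) without it. The brightness of the spot shows the same mouse before any normalization. The Cy5 signal above local background was 9266 in mouse 8 and between 215 and 753 in the other 9, while Cy3, the pool, lay between 657 and 891 on all 10 arrays. On the slide that mice 7 and 8 shared, mouse 8 was 3.73 above mouse 7 on the log2 scale, or 13.2-fold. S100a9 had 1 probe with 1 spot on each array. These values of mouse 8 thus come from the same spot and are no independent check of it.

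S100a8 did not share this value. Its log2 ratio was 0.25, 0.90, 0.13, -0.26, -0.83, 0.27, -1.02, 0.08, -0.59 and -1.24 in mice 1 to 10, with a mean of -0.23 ± 0.67 (SD, n = 10). It was highest in mouse 2 and lowest in mouse 10, a 4.38-fold range, and mouse 8 lay in the middle. Without mouse 2 the mean was -0.36 ± 0.58 (SD, n = 9). In mouse 8 S100a9 minus S100a8 came to 2.18 on the log2 ratio scale, and in the other 9 mice it lay between -2.02 and -0.14. The 2 genes of calprotectin were therefore each spread widely between mice, but not with the same mice at the ends.

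**Figure D2:**
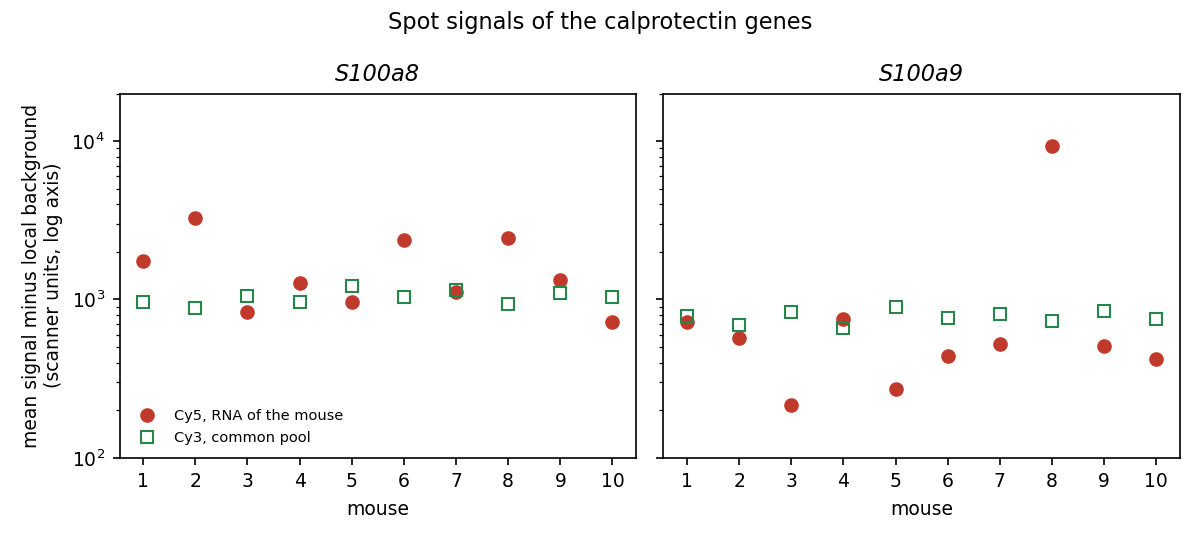
Mean spot signal minus local background, in scanner units on a log axis, for S100a8 and S100a9 in each mouse (filled circles, Cy5) and in the pool on the same array (open squares, Cy3). The S100a9 signal of mouse 8 is 9266 against at most 753 in the other mice, and the pool stays between 657 and 891.

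Neutrophil genes were examined beside this value, since neutrophils hold much calprotectin. Of 12 neutrophil marker genes, 7 were expressed, and Ltf, Ngp, Cxcr2, Mmp8 and Mmp9, which encode granule proteins, proteases and a chemokine receptor, were not above background on 5 arrays. The mean log2 ratio of the 7 was 0.06 in mouse 8, inside the range of -0.19 to 0.20 over the other mice, and 3 of 7 exceeded there the median over the remaining 9 mice. The Cy5 signal above background, summed over the 12 and not normalized between arrays, was 43577 in mouse 8 and 15971 to 43682 over all mice. Neither the mean of the 7 nor the summed signal of the 12 set mouse 8 apart. Each of the genes not above background on 5 arrays also exceeded in mouse 8 its median over the other 9 mice. Of these, Cxcr2 was highest in mouse 8 at 0.43, with a gap to the next mouse of 0.44 of its range. Retnlg, a resistin-like gene of neutrophils named here after its values were seen, was highest in mouse 8 at 0.85, with a gap to the next mouse of 0.670 of its range. Camp, a granule peptide, was 0.15 in mouse 8 against a median of 0.01 over the other 9, and Ly6g, a neutrophil surface protein, 0.27 against 0.11. The other 4 of the 7 expressed genes lay below that median in mouse 8. Lcn2, a protein that binds iron carriers of bacteria, was -0.73 against -0.43, and Mpo, the myeloperoxidase gene, -0.10 against 0.03. Elane, the neutrophil elastase gene, was 0.01 against 0.12, and Csf3r, a growth factor receptor, -0.05 against -0.01. The mean of the 7 was highest in mouse 2, at 0.20, where S100a8 was also highest. Lcn2 was highest there at 1.54, no other expressed gene of the list was, and Retnlg was -0.38. The blood list, of which 4 of 6 genes were expressed, was also highest in mouse 8, at a mean log2 ratio of 0.39. It was -1.63 to -0.99 in mice 4 to 7 and -0.66 to 0.08 in the remaining mice. The mean of the mesothelium list, described below, was highest in mouse 8 too, at 0.33 against at most 0.31 in the other mice. The part of blood, mesothelium or neutrophils in the S100a8 and S100a9 values was not tested.

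S100a4, a protein that binds non-muscle myosin and is made by macrophages and fibroblasts, parted the mice most cleanly. Its log2 ratio was -0.31, -0.54, -0.50, 0.93, 0.64, 0.67, 0.74, -0.40, -0.81 and -0.44 in mice 1 to 10, with a mean of 0.00 ± 0.66 (SD, n = 10). Mice 4 to 7 lay between 0.64 and 0.93 and the other 6 between -0.81 and -0.31, with a gap of 0.95 and no value between. Within these 6 the SD was 0.17. On shared slides, mouse 4 was 1.43 above mouse 3 and mouse 8 was 1.13 below mouse 7, so the difference was also present between arrays of 1 slide. The second S100a4 probe, which lies on another stretch of the transcript, differed from the first by 0.06 on average once each was centred on its mean.

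S100a6, or calcyclin, and S100a1, which is best known from heart and skeletal muscle, also had mice 4 to 7 above the rest, by smaller margins. S100a1 was 0.03, -0.18, -0.13, 0.86, 0.68, 0.60, 0.80, 0.30, 0.30 and 0.26 in mice 1 to 10, with a mean of 0.35 ± 0.37 (SD, n = 10) and a gap of 0.30 between the 4 mice and the other 6. Its second probe differed from the first by 0.10 on average after centring. S100a6 was -0.38, -0.66, -0.82, 0.21, -0.09, -0.13, -0.09, -0.19, -0.87 and -0.28, with a mean of -0.33 ± 0.35 (SD, n = 10). Its gap of 0.06 closed when arrays were centred on their median in place of loess, where mice 4 to 7 lay between 0.65 and 1.07 and the others reached 0.66. In all, 3 of 10 S100 genes had all of mice 4 to 7 above the other 6 under loess, and 18.5% of all expressed genes did. With median centring it was 2 of 10, S100a1 and S100a4, and 16.8% of all expressed genes.

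Mice 4 to 7 lay below the rest for S100a16, S100a11 and S100b under loess, and for 0 of these genes when arrays were centred on the median. S100a16, a member expressed in many tissues, was 0.40, 0.09, 0.18, -0.39, -0.38, -0.36, -0.53, 0.23, 0.26 and 0.34 in mice 1 to 10, with a mean of -0.02 ± 0.36 (SD, n = 10) and a gap of 0.44. With median centring, its values in mice 4 to 7 lay between 0.18 and 0.47 and those of the others between -0.06 and 1.00. A second S100a16 probe differed from the first by 0.14 on average after centring. S100a11, a partner of annexin A1, was 0.56, 0.05, 0.51, -0.44, -0.29, -0.01, -0.42, 0.54, 0.55 and 0.52, with a mean of 0.16 ± 0.43 (SD, n = 10), and the gap of 0.07 lay between mice 2 and 6. Mouse 2 was thus nearer to mouse 6 than to the other 5 mice of its side. In all, 3 of 10 S100 genes were placed this way under loess, and 23% of all expressed genes were, against 0 of 10 and 6.86% with median centring.

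S100b, the glial and adipocyte member and the only 1 of the 10 outside chromosome 3, was 0.24, 0.27, -0.04, -0.40, -0.59, -0.66, -0.74, -0.25, 0.84 and 0.23 in mice 1 to 10. Its mean was -0.11 ± 0.51 (SD, n = 10), with mouse 9 highest and 2.99-fold above mouse 7. The gap between mice 4 to 7 and the other 6 was 0.14 under loess. With median centring mouse 3 fell inside, since mice 4 to 7 then lay between -0.37 and -0.11 and the others began at -0.16. Its Cy5 signal was 105 to 551 scanner units above the local background.

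S100a10 and S100a13 varied least. S100a10, the subunit that joins annexin A2 in a plasma membrane complex, lay between -0.56 in mouse 2 and 0.18 in mouse 10, with a median of -0.07 and a mean of -0.07 ± 0.21 (SD, n = 10). S100a13, which takes part in the release of fibroblast growth factor 1, lay between -0.19 in mouse 2 and 0.41 in mouse 10, with a median of 0.18 and a mean of 0.11 ± 0.20 (SD, n = 10). Both were lowest in mouse 2, which stood apart on the second component, and highest in mouse 10, and mice 4 to 7 overlapped with the others. Without mouse 2 the SD of S100a10 was 0.13 and that of S100a13 0.18. After centring, the mean absolute difference over 10 mice was 0.11 between S100a10 and S100a13, a value that the small SDs of both genes hold low. It was 0.12 between S100a11 and S100a16, and 0.17 between S100a1 and S100a6.

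Position along chromosome 3 did not sort the genes by these placements. In order of their probes on mm9, S100a1, S100a13, S100a16, S100a4, S100a6, S100a8 and S100a9 lay between 90315191 and 90496632, and S100a11 and S100a10 lay 2833 kb further on. S100a16, with mice 4 to 7 lowest under loess only, stood between S100a13, with overlap, and S100a4, with mice 4 to 7 highest, at 63.0 kb from the latter. S100a4 and S100a6, 8.19 kb apart, both had mice 4 to 7 highest under loess, and S100a4 also with median centring.

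Markers of several cell types parted the same mice. The macrophage list had 8 of 9 genes on the array, all 8 expressed, and all 8 had mice 4 to 7 above the others, with a mean log2 ratio of 0.76 to 1.04 in mice 4 to 7 and -1.23 to -0.13 in the other 6. The adipocyte list, which includes Adipoq, the gene of adiponectin, had 7 of 7 genes below in these mice, at a mean of -2.46 to -1.37 against -0.15 to 0.68. With median centring, all 8 macrophage genes still had mice 4 to 7 above the others, and 4 of 7 adipocyte genes, Adipoq among them, had them below. In bulk tissue, fewer cells of a type and less RNA per cell cannot be told apart. The summed Cy5 signal of the macrophage list was 261767 to 422846 in mice 4 to 7 and 49831 to 118416 in the others, and that of the adipocyte list 163890 to 313166 and 277015 to 892874. These sums were not normalized between arrays. The values 49831 and 277015 were those of mouse 3, whose array had the lowest median Cy5 signal, 53. The next lowest adipocyte sum of the others was 504553, in mouse 2. S100a1, S100a4 and S100a6 were high in the same mice as the macrophage list, and S100a11, S100a16 and S100b low in the same mice as the adipocyte list, under loess. With median centring this was left for S100a1 and S100a4. The part of either cell type in these values was not tested.

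The other lists bear on single S100 genes. The mesothelium list, with all 6 genes expressed, lay between -1.52 and -1.05 in mice 4 to 7 and between -0.52 and 0.33 in the others, and 3 of 6 genes had mice 4 to 7 below under loess, where 23% of all expressed genes did, against 0 with median centring, where 6.86% did. The endothelium list, with all 4 expressed, lay between -0.61 and -0.35 against -0.09 to 0.25 under loess, and overlapped with median centring. The Schwann cell and nerve list, relevant to S100b, had 6 genes expressed, and its mean lay between -0.06 and 0.36 over all mice with overlap. Mouse 9, where S100b was highest, had a mean of 0.02 on that list, and the highest mean was in mouse 2. The mean of the fibroblast and progenitor list, with all 7 expressed, overlapped as well, at -0.18 to 0.12 in mice 4 to 7 and -0.34 to 0.06 in the others, but not every gene did. The collagen genes Col1a1, at 0.47 to 0.66 against -1.05 to -0.01, and Col3a1, at 0.33 to 0.79 against -0.68 to 0.07, were highest in mice 4 to 7, as S100a4 was, and Dpp4 was lowest, at -0.99 to -0.57 against -0.11 to 0.45. With median centring these 3 were placed the same way, and Thy1 joined those above. The list of ciliated and epididymal epithelium had 2 of 6 genes expressed. Its mean was highest in mouse 2, at 0.67, with Tekt1 at 1.44 and Lcn12 at -0.09 there. Foxj1, above background on 4 arrays and so not in the mean, was also highest in mouse 2, at 1.95. Crisp1 and Lcn8, above background on 0 arrays, were not highest there. The part of any of these cells in the S100 values was not tested.

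**Figure D3:**
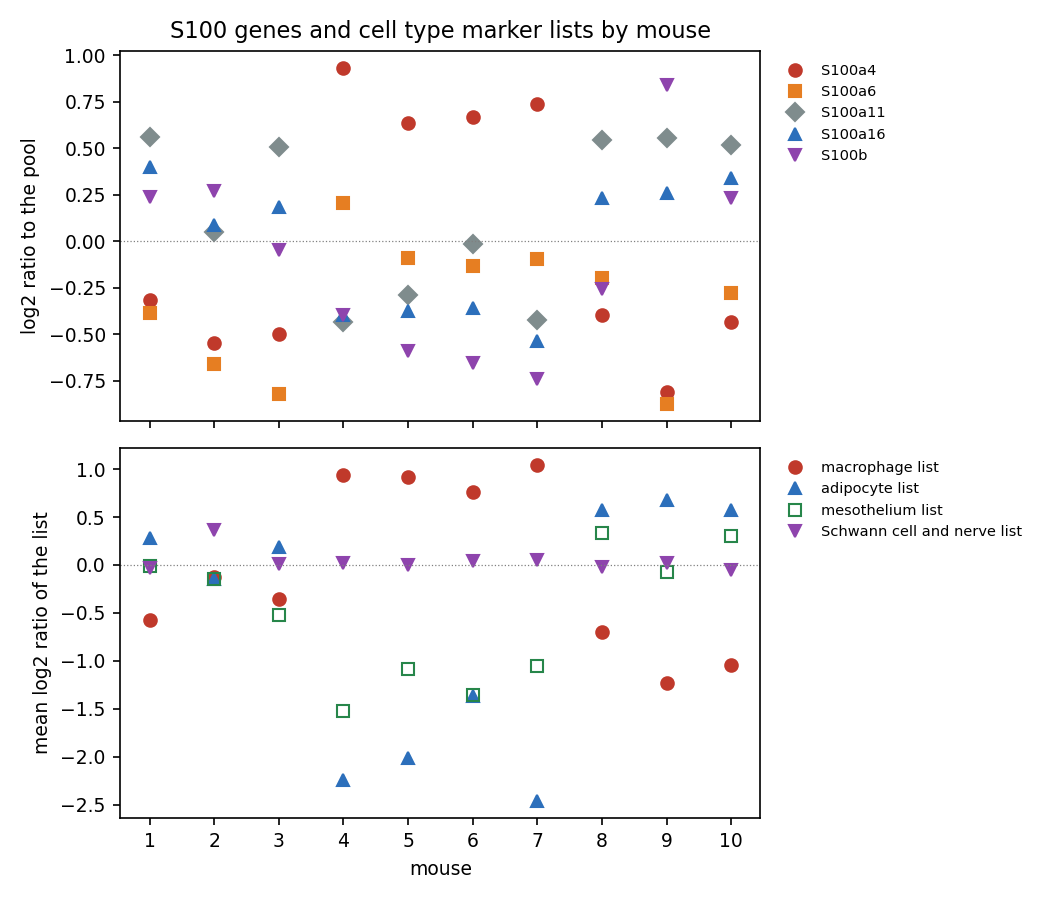
Upper panel: log2 ratio to the pool of 5 S100 genes in each of 10 mice. Lower panel: mean log2 ratio of 4 marker lists in the same mice. In mice 4 to 7 S100a4 and the macrophage list are at their highest and the adipocyte list, at -2.46 to -1.37, at its lowest, while the Schwann cell and nerve list stays between -0.06 and 0.36 in all mice.

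Known partners, receptors and regulators of S100 proteins were described in the same mice. Of 16 such genes, 15 were expressed, with a median SD of 0.36, and Ager, the receptor for advanced glycation end products, was not above background on any array. Among receptors, Tlr4, a receptor of calprotectin, was 0.12 to 0.39 in mice 4 to 7 and -0.50 to -0.22 in the other 6. Alcam, an adhesion molecule, was 0.86 to 1.06 against -0.79 to -0.11. Cd36, a fatty acid receptor, was also higher in mice 4 to 7, while Bsg, a surface protein known to bind S100A9, overlapped. Of the annexins, which bind phospholipids and S100 dimers, Anxa1 and Anxa11 were higher in mice 4 to 7, at 0.30 to 0.40 and 0.33 to 0.68, and Anxa6 lower under loess but not with median centring, at -1.13 to -0.69 against -0.19 to 0.25. Anxa1 was thus placed opposite to its partner S100a11 under loess, and Anxa2, the partner of S100a10, overlapped between 0.02 and 0.39.

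Among the remaining partners, Fgf1, whose release involves S100a13, lay between -1.25 and -0.80 in mice 4 to 7 and between -0.21 and 0.37 in the others, under loess, whereas S100a13 overlapped. Ahnak, a large scaffold protein that binds S100A10 with annexin A2, was lower in mice 4 to 7 as well under loess, at -0.83 to -0.33 against -0.25 to 0.40. Cebpd, a transcription factor of myeloid cells and adipocytes, was -1.02 to -0.63 in mice 4 to 7 and -0.57 to 0.48 in the others under loess, and these 3 genes overlapped with median centring. In all, 5 of the 15 had mice 4 to 7 above, 4 had them below under loess and 0 with median centring, and 6 overlapped under loess, among them Cebpb, Anxa5, Myh9, the myosin that S100A4 binds, and Atp2a2, the calcium pump that S100A1 binds. In mouse 8, where S100a9 stood apart, Anxa2 was 0.39, Anxa5 0.27 and Anxa6 0.25, each the highest of the 10 mice. The other expressed partners were not highest there, among them Tlr4 at -0.23 and Cebpb at 0.13. How many of all expressed genes were highest in mouse 8 was not counted, so no link to S100a9 is read from these values. The 5 partners with mice 4 to 7 above were the same with median centring. Over all expressed genes, 18.5% had these mice above and 23% below under loess, and 16.8% and 6.86% with median centring.

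The other 8 genes on the array whose symbol starts with S100 showed little spread. S100a2, S100a3, S100a5, S100g and S100pbp, which encodes a binding protein of another S100 protein, were expressed, with SDs of 0.13 to 0.17 and log2 ratios between -0.31 and 0.35 in all mice. S100a14, S100a7a and S100z were not above background on 5 arrays. In none of the 8 did mice 4 to 7 lie apart from the others under loess. Of all expressed genes, 18.5% had these mice above and 23% below. Among the expressed genes named here, S100g was above background on 5 arrays only. The S100 genes described above were chosen with their values known, so nothing is read from their wider spread against these 8.

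Genes whose pattern over the 10 mice was nearest to that of an S100 gene were found by the mean absolute difference of log2 ratios, each centred on its own mean. The nearest to S100a4 were Fam111a at 0.07, Snx20 at 0.08, and Alox5ap, which activates leukotriene synthesis, Cklf, a chemokine-like factor, and Tmem104, each at 0.10, against a median of 0.61 over all expressed genes. The nearest to S100a8 were Cdkl4 at 0.21, Lipf, a lipase, at 0.24, Grb14, an adaptor of the insulin receptor, at 0.26, Ddah1 at 0.27 and Gys2, a glycogen synthase, at 0.28, against a median of 0.57. The choice of these genes fixes that they follow the S100 gene they were matched to. By this measure, which is not scaled for the size of the spread, no gene came close to S100a9. A gene of the same shape but smaller spread would also lie far from it. The nearest named genes were Il1b, the cytokine interleukin 1 beta, at 0.57, Slc15a2, a peptide transporter, at 0.61 and 6720401G13Rik at 0.62, against a median of 0.79. The 2 other genes of the nearest 5 were unnamed transcripts of the array annotation. Il1b was highest in mouse 8, at 0.68 against at most 0.19 in the other mice. So were 6720401G13Rik, at 1.35 against at most 0.32, and the unnamed transcripts, at 1.45 against 0.34 and 1.44 against 0.23. Slc15a2 was highest in mouse 2, at 0.87, with 0.86 in mouse 8.

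**Figure D4:**
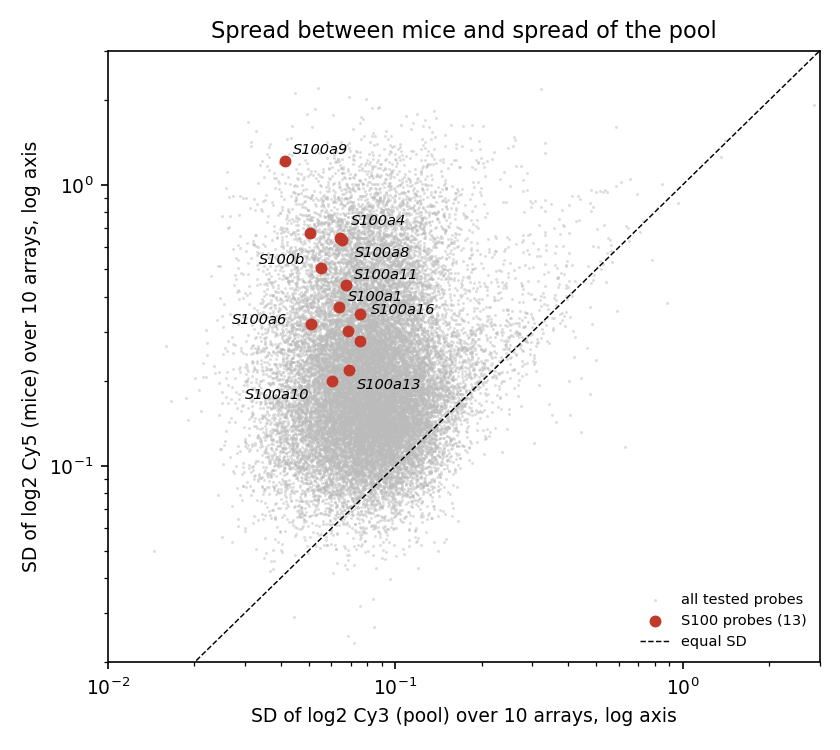
SD over 10 arrays of normalized log2 Cy5 (the 10 mice, vertical) against that of log2 Cy3 (the same pool on every array, horizontal), both axes logarithmic, for all tested probes in grey and the 13 S100 probes in red, with the main probe of each gene named. All 13 red points lie above the dashed line of equal SD, with Cy3 SDs between 0.041 and 0.076.

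The spread of the pool, which was the same RNA on every array, gave the part of the technical error that arises on the arrays. RNA isolation and Cy5 labelling of each mouse enter Cy5 only and were not separated from the spread between mice. Their SD of normalized log2 Cy3 lay between 0.041 for S100a9 and 0.076 for S100a16, and the SD of log2 Cy5 between 0.20 for S100a10 and 1.22 for S100a9. In the Pitman-Morgan test for paired variances over 25044 probes, with Benjamini-Hochberg adjustment at 0.05, variance was larger in Cy5 for 59.7% of all probes and for 13 of 13 S100 probes. Since the genes were chosen with these values known, nothing is read from their count. Without normalization between arrays the test called 5 of the 13, and 18.7% of all probes.

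No S100 probe passed the test for a difference between slides. In limma's moderated F test of the 5 slides over 27711 probes, 0% passed an adjusted p of 0.05 and 1137 had an unadjusted p under 0.05. The lowest adjusted p of the 13 S100 probes was 0.697, and 1 of them, S100b, had an unadjusted p under 0.05, at 0.00652. With 2 arrays on each slide, a slide difference of moderate size may not have been detectable.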

How the data were processed

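RNA of eWAT of 10 mice of 1 group was measured on 10 two-colour Agilent arrays. The authors deposited scanner files with the mean intensity of each spot and its local background in each dye, not normalized, and a log10 ratio from Agilent Feature Extraction 10.7.3.1, which has its own background and dye correction. They also deposited a table of normalized log2 values for 30733 spots. Its columns followed log2 Cy5 (r of 0.979 to 0.997 over spots) and shared a median of 8.52, its normalization is not given in the sources used here, and it served as an alternative for differences between mice. From the intensity values, normexp background correction (offset 50) and loess within arrays gave log2 ratios, with limma 3.58.1 in R 4.3.3. Control spots had weight 0, spots of 1 probe were averaged, and the brightest probe stood for a gene. Channel values for the variance test were then normalized between arrays (Aquantile). Other steps used Python 3.11.15. Scripts were tested on simulated data. The number of arrays limits the precision. The p-values of the variance test compare the spread of Cy5 with that of Cy3 over the 10 arrays. Those of the slide test compare slides with the difference between arrays of 1 slide.

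The members, the marker and partner lists and the alternatives were chosen with earlier results of these data known. Named genes were the 10 members, other genes whose symbol starts with S100, 16 listed partners, and the 5 nearest genes for the 3 members with the largest SD. Il1b in mouse 8 and single markers were named after their values were seen. Promoter sequences are from RefSeq (GRCm38.p6), where 9 of 10 members matched by symbol. Gene symbols are those of the array design. 1 marker gene is not reported here.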

Additional observations from a re-analysis of the deposited data

Results flagged for a closer look

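S100a9 in mouse 8 lay far from the other mice. The gap to the next mouse was 0.63 of the whole range of the 10 mice, above the 95% critical value of Dixon's test, 0.466, which chance exceeds in about 1 of 20 groups. The gap stayed between 0.599 and 0.628 of the range under the 4 other ways of processing, the deposited normalized values included. Mouse 8 was then 13.7 to 14.3 times the median of the other 9. All of these values rest on the same single spot of mouse 8.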

How the results depend on the processing

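Of 79 alternative values, 67 moved by less than the spread between mice, or for counts by no more than 1.5 times, and 12 moved further. Centring each array on its median in place of loess set the median of all expressed genes to 0.38 on average, between -0.12 and 0.52 over the mice, against about 0 with loess. The mean log2 ratios then became 0.89 for S100a1, 0.68 for S100a4, 0.40 for S100a6, 0.59 for S100a10, 0.81 for S100a11, 0.70 for S100a13 and 0.58 for S100a16, and means against the pool are therefore not read as a direction. Under the same centring 2 S100 genes, S100a1 and S100a4, had mice 4 to 7 above the others and 0 had them below. The number of S100 genes with 1 mouse far from the rest was 2 with the deposited values (S100a9 and S100a10). It was 4 without mice 4 to 7 (S100a9, S100a10, S100a11 and S100a13), an alternative chosen after seeing the data. For these 6 mice the critical value was 0.625. The share of 5.39% of all expressed genes holds for 10 mice under the main processing only, so nothing is read from these counts. Probes with larger variance in Cy5 fell to 4674, and S100 probes among them to 5, without normalization between arrays. Leaving out each mouse in turn, 9 to 10 S100 genes had an SD above the median of expressed genes. With the scanner's own log ratio 8 of 10 did. The deposited values hold no ratio to the pool and gave no means. With them S100a11 no longer had mice 4 to 7 all below. No paired analysis was possible because all samples are of 1 group. The placements of mice 4 to 7 were chosen after seeing the data.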
